A study of Mus musculus with 7 samples.

Results

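In mouse ovary, 506 of the 4251 sites with chromatin immunoprecipitation sequencing (ChIP-seq) signal for estrogen receptor beta (ERβ) held none of 3 motifs in the 200 bp around their centre. These sites make up 11.9% of all sites. A site was a maximum of the mean signal over 200 bp that reached 2, exceeded 4 times the mean of both inputs and 4 times the same library's mean over 10 kb, and was found in at least 2 of 3 ChIP replicates. The sites described here were then selected on their sequence. They had 3 or more mismatches to the best estrogen response element (ERE), no exact AGGTCA half-site and no exact GATA motif (BNWGATAA, where B is any base except A and W is A or T). The ERE was written as GGTCA, 3 free bases and the inverted copy TGACC, so mismatches were counted over 10 fixed bases. Of the remaining sites, 2946 held an ERE with at most 2 mismatches, 474 a half-site without ERE or GATA motif, and 325 a GATA motif without ERE. In the genome cut into 200-bp tiles, 70.1% of tiles met the sequence part of this rule, against 11.9% of the sites.

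The study performed ERβ ChIP-seq on whole ovaries of female C57BL/6J mice with endogenous ERβ expression, with the mouse monoclonal antibody PPZ0506, and sequenced input chromatin from the same tissue and strain. Each ChIP replicate was a pool of ovaries from several juvenile to adult animals that were not staged for the estrus cycle. The 3 ChIP and 2 input libraries were analysed, and the ChIP samples from ovaries with deleted ERβ were not analysed here, so signal that does not depend on ERβ cannot be told apart at any site. Whole ovary mixes granulosa, theca, luteal and stromal cells, and a weak site in all cells and a strong site in few cells cannot be told apart. The track names of ChIP replicates 2 and 3 and Input 2 share a prefix that ChIP replicate 1 and Input 1 lack, which is the only batch label in the files.

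ERβ is a ligand-activated nuclear receptor that is abundant in granulosa cells, the cells that surround the oocyte and make estradiol. As a dimer it contacts an ERE, a palindrome in which each receptor holds one arm. Estrogen receptors are also known to occupy chromatin where no ERE is seen, through degenerate elements or through other DNA-bound factors such as AP-1 and Sp1, and nuclear receptors of the NR5A group, GATA factors and steroid receptors act in the same ovarian cells.

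Of the 10 sites with the highest mean fold over input among those called in all 3 replicates, 9 had a best ERE with 3 mismatches, and the site near Arid1b, described further on, had 6. The closest match to the ERE is shown for 7 of the 9, each with 15 bases on either side, on the plus strand of GRCm38 (RefSeq copy). Capitals mark the fixed ERE bases that match, so each element has 7 capitals. The match lay within 25 bp of the site centre in 5 of the 7 and further away near Mycn and Inhba.
Akr1cl, chr1:65040965-65041007: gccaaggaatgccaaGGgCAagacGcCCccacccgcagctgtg
Mycn, chr12:12904635-12904677: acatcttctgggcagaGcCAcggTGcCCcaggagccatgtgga
Spsb1, chr4:149887134-149887176: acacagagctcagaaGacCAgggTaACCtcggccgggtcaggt
Hao2, chr3:98890596-98890638: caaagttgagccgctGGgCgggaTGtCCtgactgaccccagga
Inhba, chr13:16454978-16455020: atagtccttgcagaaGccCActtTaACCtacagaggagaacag
Epha1, chr6:42362306-42362348: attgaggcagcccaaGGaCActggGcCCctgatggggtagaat
Kirrel3, chr9:35028729-35028771: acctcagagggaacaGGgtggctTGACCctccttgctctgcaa

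Some of the sites carried palindromes of the glucocorticoid type, AGAACA, 3 free bases and TGTTCT, which is bound by the glucocorticoid, progesterone and androgen receptors. The single site with an exact match lay in an intron of Fkbp5, and both sites in introns of Zbtb16 had 2 mismatches. Fkbp5 and Zbtb16 are well-known genes that respond to glucocorticoids and progesterone. These sites were picked after their sequences were seen, and the strongest site with 1 mismatch is shown beside them. Capitals mark the bases that match.
Fkbp5, chr17:28420306-28420350: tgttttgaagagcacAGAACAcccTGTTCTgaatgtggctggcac
Spock2, chr10:60082063-60082107: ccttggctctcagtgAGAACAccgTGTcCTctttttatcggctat
Zbtb16, chr9:48786969-48787013: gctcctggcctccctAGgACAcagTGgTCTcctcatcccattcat
Zbtb16, chr9:48737586-48737630: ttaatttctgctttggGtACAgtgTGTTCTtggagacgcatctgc

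A further arrangement placed 2 near half-sites, each at most 1 base away from AGGTCA, in inverted orientation with 8 free bases between them, where an ERE has 3. Of 11 such sites, the 4 strongest without repeat sequence are shown. Capitals mark the half-site bases that match.
Birc6, chr17:74605124-74605167: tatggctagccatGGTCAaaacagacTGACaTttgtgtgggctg
Kl, chr5:150952815-150952858: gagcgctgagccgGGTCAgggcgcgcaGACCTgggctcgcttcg
Foxl2, chr9:98965210-98965253: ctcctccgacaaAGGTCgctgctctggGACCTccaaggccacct
Snai1, chr2:167562467-167562510: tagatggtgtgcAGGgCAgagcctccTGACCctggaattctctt

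Half-sites changed in 1 base were frequent, and the 2 changes that stood furthest above the genome were in the last and the first base (AGGTCG and GGGTCA). The site near Nav2 shows an AGGTCG on the minus strand, in capitals, which in the printed strand directly follows a GGGTCA. Both words recur there every 22 bp, with 9 copies of GGGTCA and 8 of AGGTCG in the 200 bp. Such repetition was rare, with 3 or more copies of GGGTCA in 8 sites and of AGGTCG in 2. The sites near Trpm4 and Nol4l show the NR5A variant CAAGGCCA, also on the minus strand and in capitals. NR5A receptors, which bind one extended half-site as a monomer, prefer the same element with an exact half-site, which the rule had removed.
Nav2, chr7:49432500-49432535: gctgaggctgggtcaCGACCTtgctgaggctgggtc
Trpm4, chr7:45312098-45312135: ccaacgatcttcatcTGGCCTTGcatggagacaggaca
Nol4l, chr2:153549746-153549783: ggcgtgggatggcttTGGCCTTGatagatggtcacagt

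A GC box (GGGCGG), the element that Sp1 family factors bind, was present in 31 of the 55 sites at protein-coding promoters and absent from 24. The full 200 bp is shown for the strongest promoter sites, those of Skil and Perp, which both hold one, with GC boxes in capitals. Skil encodes a repressor of SMAD signalling and Perp a component of desmosomes. The Perp window also holds an AGGTCG directly before its second GC box.
Skil, chr3:31094021-31094220: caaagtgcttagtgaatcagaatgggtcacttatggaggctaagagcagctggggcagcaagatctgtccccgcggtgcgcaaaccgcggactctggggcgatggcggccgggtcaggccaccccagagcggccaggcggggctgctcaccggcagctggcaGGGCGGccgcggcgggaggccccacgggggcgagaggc
Perp, chr10:18844911-18845110: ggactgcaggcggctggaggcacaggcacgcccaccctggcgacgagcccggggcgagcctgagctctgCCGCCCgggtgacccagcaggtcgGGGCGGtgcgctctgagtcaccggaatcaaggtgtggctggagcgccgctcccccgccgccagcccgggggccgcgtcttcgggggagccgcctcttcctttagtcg

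The signal of the 506 sites was the quantity by which they were chosen, and it is given here as a description. Their median signal in the ChIP libraries was 3.56, 4.37 and 4.19 (replicates 1 to 3), against 0.722 in Input 1 and 0.598 in Input 2, where signal is coverage scaled to a common library total and the genome mean was 0.362 to 0.370 in every library. The mean fold over input had a median of 5.70 and ran from 3.20 to 42.7. It was 6.94 for the sites with an ERE, 6.29 for those with a GATA motif and 6.04 for those with a half-site. A mean fold of 8 or more was reached by 134 of the 506 sites (26.5%) and by 39.3% of the ERE sites. All 3 replicates called 309 of the 506 sites (61.1%), whereas over all 4251 sites the share was 68.6%. Peaks were as narrow as at other sites, with a median width at mid-height of 240 bp, and 230 bp at ERE sites.

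**Figure D1:**
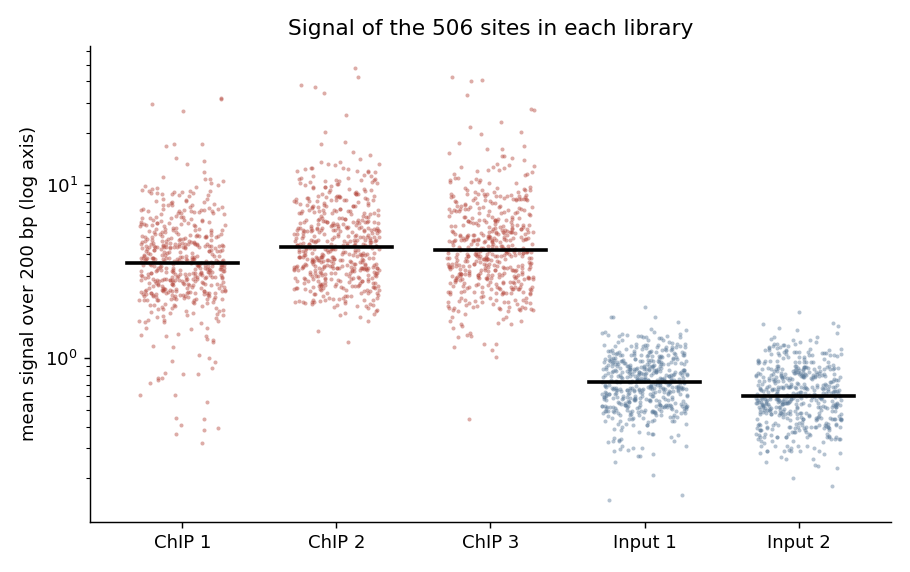
Mean signal over 200 bp (log axis) of the 506 sites in each ChIP (red) and input (blue) library; each point is 1 site and the black line is the median. Medians lie at 3.56 to 4.37 in ChIP and at 0.598 to 0.722 in input, and a tail of sites falls below 1 in ChIP replicate 1.

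A library that had not taken part in the call still showed the signal. For each replicate in turn, sites were called in the other 2 libraries and read in the one left out, so the ChIP value was free of the selection, while the inputs were shared. The median fold of the sites without the 3 motifs was 5.13 over 420 sites when replicate 1 was left out, 7.08 over 334 sites for replicate 2 and 6.55 over 366 sites for replicate 3. The ERE sites had 6.23, 8.79 and 8.58 in the same libraries. The mean over replicates was 6.25 ± 1.01 (SD, n = 3) and 7.87 ± 1.42 (SD, n = 3). The difference was −0.33 ± 0.06 on the log2 scale (SD, n = 3) and was negative in 3 of 3 replicates. The exact two-sided sign-flip permutation test gave p = 0.25, the smallest value that 3 replicates allow, so the design cannot reach significance. Without division by input the difference shrank to −0.13 ± 0.07 (SD, n = 3), and the median input signal over all called sites was 0.722 and 0.598 here and 0.656 and 0.550 at ERE sites. The fold exceeded 4 at 71.7%, 91.0% and 85.5% of the sites without the 3 motifs in replicates 1, 2 and 3, and at 77.4%, 94.9% and 91.1% of all sites.

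**Figure D2:**
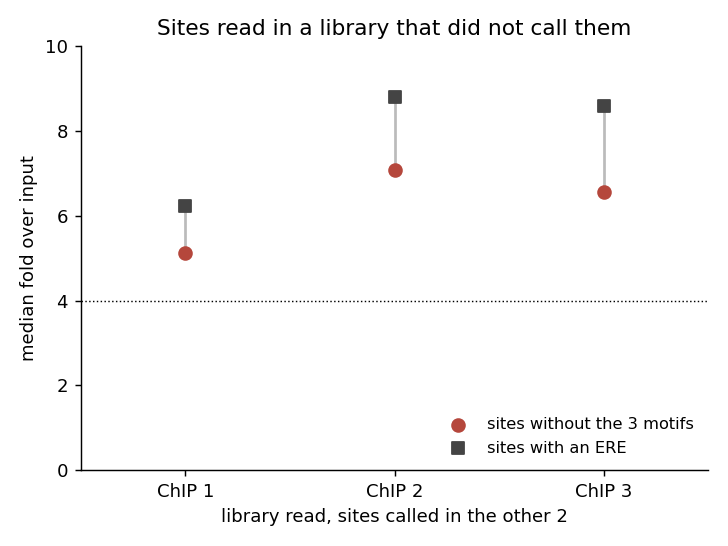
Median fold over input in each ChIP library for sites called in the other 2 libraries; circles are sites without the 3 motifs, squares are ERE sites, and the dotted line marks a fold of 4. The circle lies below the square in each of the 3 libraries, at 5.13 against 6.23, 7.08 against 8.79 and 6.55 against 8.58.

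Across the genome, limma with Benjamini-Hochberg adjustment called 0.0957% of 2430657 windows of 1 kb higher in ChIP than in input. A called window covered 201 of the 506 sites and 2189 of all 4251 sites. The sites were chosen on the same contrast, so nothing is read from that count. It fell to 121 without Input 1, to 82 without Input 2 and to 90 without ChIP replicate 2.

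The strongest site lay 6.63 kb upstream of the protein-coding start of Synpo, an actin-associated protein, at chr18:60654851-60655050. Its signal was 27.1, 36.9 and 33.6 in ChIP replicates 1, 2 and 3 and 0.634 and 0.888 in the inputs, a mean fold of 42.7 ± 6.57 (SD, n = 3). The site upstream of Akr1cl, a member of the aldo-keto reductase family, lay 8.23 kb from its start and had signals of 31.9, 42.6 and 40.6 against 1.32 and 0.842 in the inputs. Near Mycn, a transcription factor of the Myc family, the site lay 35.9 kb downstream of the start and within an exon of the non-coding transcript 4930519A11Rik. It had signals of 29.6, 34.2 and 40.0 against 0.904 and 1.24. The ChIP values lay above both inputs at all 3 sites. Each was called in all 3 replicates, and a call requires signal above input.

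Downstream of Spsb1, an adaptor of a ubiquitin ligase, a site at 20.1 kb from the start had signals of 31.5, 38.1 and 42.2, with 0.856 and 1.60 in the inputs. A site in intron 1 of 8 of Hao2, a hydroxy acid oxidase, had 16.9, 20.2 and 23.4, with 0.570 and 0.990. The site whose nearest protein-coding start is that of Inhba, the inhibin and activin βA subunit, lay 440 kb from it and had 14.4, 13.6 and 16.3, with 0.664 and 0.557. Replicate 1 was the lowest ChIP library at Spsb1 and Hao2, and replicate 2 at Inhba. The sites in intron 11 of 17 of Epha1 and intron 14 of 16 of Kirrel3 had mean folds of 22.9 ± 4.23 and 22.2 ± 5.50 (SD, n = 3), and a site in intron 3 of Zhx2, nearest to the start of Derl1, had 22.2 ± 4.05 (SD, n = 3).

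One of the 10 strongest sites behaved differently. The site 369 kb upstream of Arid1b had a signal of 5.36 in ChIP replicate 1 but 48.1 and 27.5 in replicates 2 and 3, with 0.481 and 1.86 in the inputs. Its best ERE had 6 mismatches and 94.0% of its bases were soft-masked as repeats. It belongs to a group of 20 sites whose fold in replicate 1 was under 0.25 times that in both other ChIP replicates, where it reached at least 4, a grouping made after the values were seen. In these 20 sites the median signal was 0.730, 7.37 and 4.54 in ChIP replicates 1, 2 and 3 and 0.448 and 0.453 in the inputs, and 19 of them were called in replicates 2 and 3 alone. Soft-masked bases made up 50% or more of 13 of the 20 sites. Sites low in replicate 1 in this way made up 3.95% of the sites without the 3 motifs. Over all 4251 sites there were 37 (0.870%). Of these, 17 belonged to the other classes, 12 of them ERE sites.

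The word GGAATG was present in 12 of the 20 sites and in 74 of the other 486 sites (15.2%), and it was repeated 5 or more times in each of those 12, in 3 of the other 486 and in 0 of the 2946 ERE sites. One site held 30 copies. Of the 10 sites with 5 or 6 mismatches to the best ERE, 7 were in this group. Replicates 2 and 3 and Input 2 share the track-name prefix. Whether the batch, the repeats or the mapping of reads to them gives this pattern was not tested. Without the 20 sites, 486 sites remained, 308 of them called in all 3 replicates, with a median fold of 5.63.

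**Figure D3:**
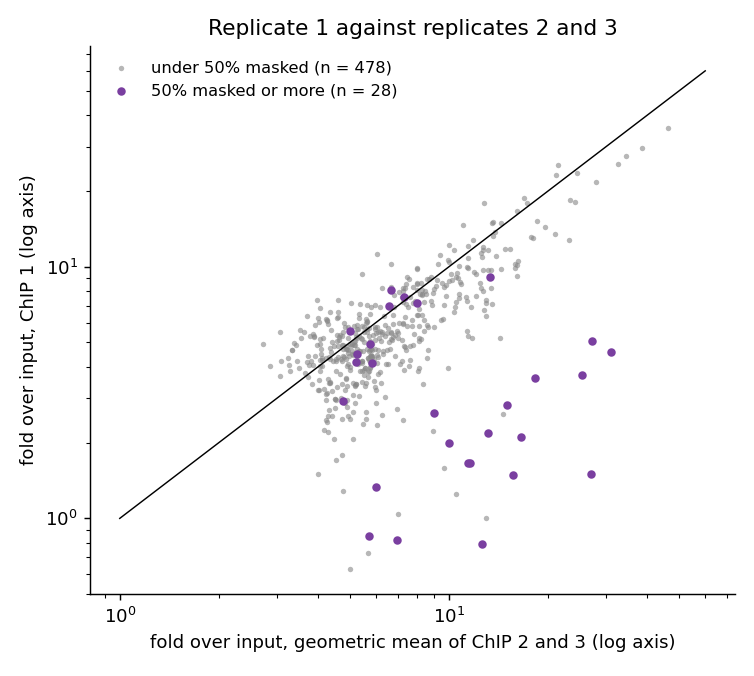
Fold over input of each of the 506 sites in ChIP replicate 1 against the geometric mean of replicates 2 and 3 (both log axes), with the line of equal values; purple points have 50% or more soft-masked bases. The purple points fall into 2 sets, one along the line and one far below it with low values in replicate 1.

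Degenerate EREs were more common at these sites than in the tiles and often lay near the centre. The sites had a median GC content of 53.3% and the tiles 42%. ERE shares were not compared among sequences of like GC content. The best ERE had 3 mismatches, the closest the rule allows, in 400 of 506 sites (79.1%, and 77.7 ± 1.40% over the 3 replicates' own calls, SD), against 36.9% of the genome tiles that met the sequence part of the rule. It had 4 mismatches in 96 sites (19%), against 56.6% of tiles. A match with 3 mismatches lay within 25 bp of the centre in 256 sites, which is 50.6% of the sites and 11.5% of the tiles. In sites with 3 mismatches such a match was central in 64.0%, and in tiles with 3 mismatches in 31.3%. In sites with 4 mismatches the best match was central in 71.9% (69 of 96), and the share for such tiles was not computed. Where a window held several equally good matches, any central one counted. In 331 of the 400 sites the mismatches were split between both arms, and in 69 one arm was intact. This split was not counted in the tiles, so nothing is read from it. Without the 20 sites that were low in replicate 1, 80.9% had 3 mismatches.

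Just across the sequence limit, by coincidence also 506 sites had a best ERE with 2 mismatches and neither a half-site nor a GATA motif. Their match was central in 63.6%, their median fold was 6.33, and 66.4% of them were called in all 3 replicates. Within the sites without the 3 motifs, the median fold was 5.74 with 3 mismatches and 5.41 with 4, and 64.0% and 52.1% were called in all 3 replicates. Sites with a central 3-mismatch ERE had a median fold of 6.10, and the remaining sites 5.29. On the signal limit, the last sites inside, near Izumo1, Adam23 and Arglu1, had the second-highest ChIP signal at 1.72, 1.89 and 1.93, since a merged centre can lie beside the summits. The first sites outside, near Lactb2, Fam53a and Rasgef1b, had 2.00, 1.99 and 1.99 and were called in 1 replicate.

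Of the 18 possible half-sites with 1 changed base, AGGTCG stood furthest above the genome. It was found in 66 of the 506 sites (13%, and 11.7 ± 1.26% over the replicates' own calls, SD) and in 1.08% of the tiles, and in 6.59% of the ERE sites. GGGTCA followed with 187 sites (37.0%) against 6.31% of the tiles and 41.3% of the ERE sites, then CGGTCA with 4.74% against 1.06%. AGGGCA was also in 187 sites, against 11.5% of the tiles. At the other end, AGGTAA was in 4.15% of the sites and 9.92% of the tiles, and AGGTGA in 8.10% and 10.6%. GGGTCA lay within 25 bp of the centre in 57.2% of the sites that had it and in 27% of such tiles. The sites have a median GC content of 53.3% and the tiles 42%, and AGGTCG contains a CpG. Among sequences of 50% GC or more, GGGTCA was in 38.8% of the sites and 10.6% of the tiles.

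**Figure D4:**
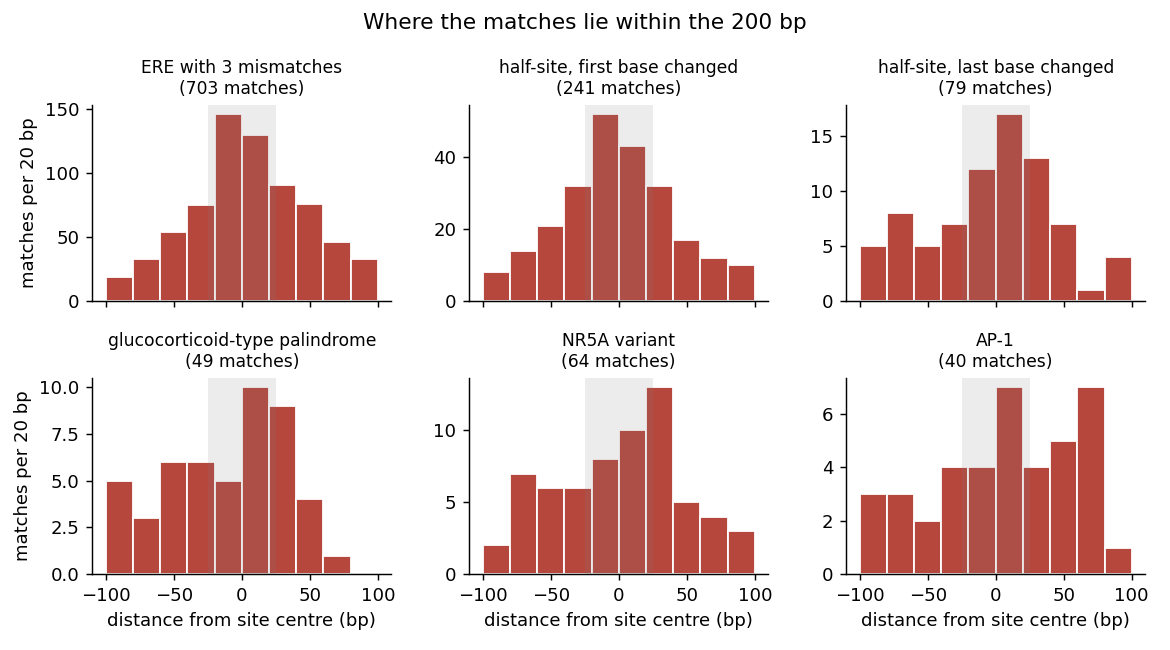
Matches per 20 bp by distance from the site centre for 6 elements in the 506 sites, with the central 25 bp on each side shaded; the half-sites have their first (GGGTCA) or last (AGGTCG) base changed. Matches of the 3-mismatch ERE and of both changed half-sites are most frequent in the shaded middle.

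Pairs of near half-sites were compared with the tiles in 27 arrangements, 3 orientations with 0 to 8 free bases, after the sequences had been seen. The inverted pair with 8 free bases stood highest, with 11 sites (2.17%, and 2.73 ± 0.22% over the replicates' own calls, SD) against 0.336% of the tiles. The arrangement was within 25 bp of the centre in 10 of the 11 sites (90.9%) and in 28.1% of the tiles that had it, and 2.89% of the ERE sites held it. The inverted pair with 3 free bases is the ERE itself, and the rule leaves it at 0. The 11 sites had a median fold of 7.92, from 3.59 to 16.3. All 3 replicates called 9 of them, where the share over all 4251 sites was 68.6%.

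Of the genes nearest to these 11 sites, Fst and Smad3 were on the TGF-beta list, Foxl2 was on the list of gonad transcription factors and Egr3 on that of immediate early genes. The site 9.93 kb downstream of the start of Foxl2, a transcription factor that maintains granulosa identity, had signals of 8.23, 7.64 and 10.4 in ChIP and 0.848 and 1.11 in input. In intron 1 of 5 of Fst, which encodes the activin-binding protein follistatin, the values were 3.41, 4.84 and 3.78, with 0.469 and 0.594. The site near Smad3, a transducer of activin and TGF-beta signals, had 2.66, 3.90 and 3.11, with 0.520 and 0.763. The site nearest to Egr3 was the weakest of the 11, with 1.29, 3.32 and 3.51 against 0.788 and 0.719, and was called in replicates 2 and 3. Stronger sites of this kind lay in introns of Tmtc1 (mean fold 16.3 ± 2.00, SD, n = 3), Birc6 (14.2 ± 3.07) and Sdc2 (14 ± 4.48), and in coding exon 1 of Kl (11.3 ± 3.55).

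Motifs of other factors that the rule did not use were compared with the same tiles, and 29 were searched on both strands without mismatch unless stated. The NR5A variant CAAGGCCA was in 57 sites (11.3%, and 11.3 ± 0.503% over the replicates' own calls, SD), in 1.76% of the tiles and in 6.38% of the ERE sites. Its share was 11.6% at the half-site sites and 9.23% at the GATA sites. The strongest of the 57 with a central match were the site in intron 16 of Trpm4 (mean fold 12.9 ± 1.64, SD, n = 3) and the one upstream of Nol4l (11.8 ± 2.08). The palindrome of NFI, TGGC, 5 free bases and GCCA, was in 13 sites (2.57%) and 0.295% of the tiles, and the match was central in 3 of the 13. It was in 2.32% of the half-site sites, 1.23% of the GATA sites and 1.29% of the ERE sites.

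The glucocorticoid-type palindrome with at most 2 mismatches was in 45 sites (8.89%, and 8.30 ± 2.12% over the replicates' own calls, SD), in 1.96% of the tiles and in 4.51% of the ERE sites. It was central in 42.2% of the 45 sites, and in 27% of the tiles that had it. The mismatches were 0 in 1 site, 1 in 7 and 2 in 37. A central 3-mismatch ERE was also in 25 of the 45 sites, and in 50.6% of all 506 sites. The 2 elements can fall on the same bases, as at the Zbtb16 site with a mean fold of 8.35. The median fold of these sites was 5.35, and 5.78 for the sites without the palindrome. The one in intron 8 of 13 of Fkbp5, a co-chaperone of steroid receptors, was called in replicates 1 and 2, with signals of 2.86, 3.35 and 1.91 against 0.866 and 0.580 in the inputs. The 2 sites in Zbtb16, a zinc finger repressor, had mean folds of 8.35 and 4.45. The strongest with a central match lay near Spock2, in intron 9 of 10 of Ascc1, with a mean fold of 11.7 ± 3.24 (SD, n = 3). The steroid receptor half-site AGAACA alone was in 22.5% of the sites and 18.8% of the tiles.

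AP-1 (TGASTCA, where S is C or G) was in 36 sites (7.11%), in 3.09% of the tiles and in 6.89% of the ERE sites. All 3 replicates called 25 of the 36 (69.4%), near the share of 68.6% over all 4251 sites. The strongest of the 36 with a central match was the Perp promoter. The forkhead motif of FOXO (TGTTTAC) was in 5.53% of the sites and 3.02% of the tiles, but was central in 17.9% of those sites. TEAD (GGAATG) was in 17.0% of the sites and 11.1% of the tiles. Without the 20 sites that were low in replicate 1 its share was 15.2%, and the central share of its sites was 35.1%, against 27.5% in tiles. At 50% GC or more TEAD was in 12.7% of the sites and 12.1% of the tiles. The relaxed GATA motif WGATAR, where R is A or G, was in 27.3% of the sites and 25.3% of the tiles, and at 50% GC or more in 20.1% and 12.9%. The cAMP response element TGACGTCA was in 0 of 506 sites, which allows a share of up to 0.593%, and in 0.116% of the tiles. Below the tiles lay the homeobox motif TAATTA (2.17% against 6.92%), TCF/LEF (1.58% against 3.68%) and the CCAAT box (5.34% against 8.50%). Among sequences of 50% GC or more the order of the homeobox motif turned, with 1.48% of the sites and 1.28% of the tiles.

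**Figure D5:**
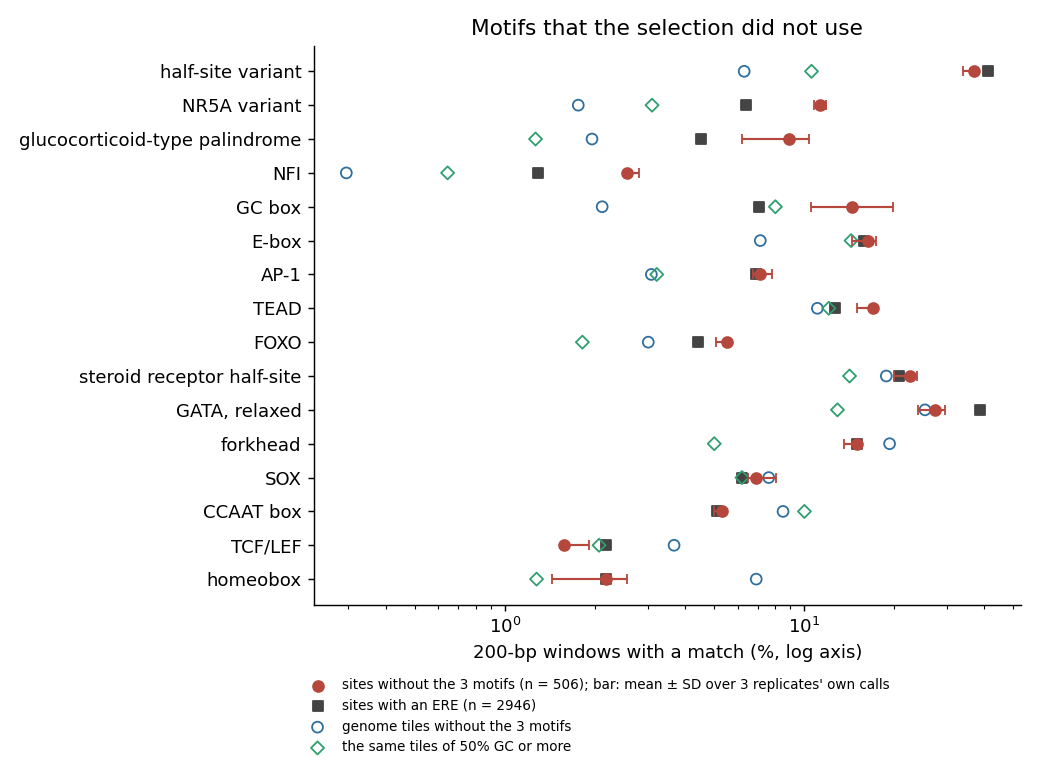
Share of 200-bp windows with each motif (log axis) in the 506 sites (red circles, with the mean ± SD over the 3 replicates' own calls), ERE sites (squares), genome tiles that meet the sequence part of the rule (open circles) and those tiles at 50% GC or more (diamonds). The half-site variant GGGTCA, the NR5A variant, the glucocorticoid-type palindrome and NFI lie furthest to the right of both kinds of tile. The GC box, E-box, AP-1, TEAD, FOXO, the steroid receptor half-site and the relaxed GATA motif also lie to the right of both. The circles are sites of any GC content, so the diamonds are not matched to them.

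The changed half-sites GGGTCA or AGGTCG, the NR5A variant or the glucocorticoid-type palindrome were present in 285 of the 506 sites (56.3%). With central 3-mismatch EREs added, 114 sites (22.5%) had none of these, and they had a median fold of 5.23 with 56 called in all 3 replicates (49.1%). When GC box, AP-1, TEAD and NFI were added as well, 59 sites (11.7%) remained with none of the elements. The strong sites near Mycn and Inhba, whose 3-mismatch ERE lay outside the central 25 bp, were among them. Both held other motifs that were searched, FOXO near Mycn, and AGAACA and the relaxed GATA motif near Inhba.

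A larger share of these sites than of the ERE sites lay at promoters, without a test of the difference. With all transcripts counted, 87 of the 506 sites (17.2%) lay between 1 kb upstream and 100 bp downstream of a transcription start, against 9.06% of the ERE sites and 3.74% of the tiles. Over the replicates' own calls the share was 18.5 ± 5.29% (SD, n = 3), and 9.19 ± 1.02% for the ERE sites. With protein-coding transcripts alone it was 55 sites (10.9%), 5.16% of the ERE sites and 1.55% of the tiles. Introns of protein-coding genes held 228 sites (45.1%), with 71 in intron 1, and 187 (37.0%) were intergenic.

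The 55 promoter sites had a median GC content of 68.5% and 17 CpG dinucleotides in 200 bp, where the other sites had 52% and 3. ERE sites at promoters had a median GC content of 60.25%. GC box shares at promoters were not compared among sequences of like GC content. A GC box was present in 31 of the 55 (56.4%), in 16% of the promoter tiles that met the sequence part of the rule, and in 37.5% of the ERE sites at promoters. Away from promoters 42 sites (9.31%) held one. Over all sequences of 50% GC or more, 20.7% of the sites and 8.02% of the tiles held one. The median fold was 6.47 at promoters and 5.61 elsewhere. All 3 replicates called 36 of the 55 (65.5%), and 68.6% of all 4251 sites. A central 3-mismatch ERE was in 32 of the 55 (58.2%) and in 49.7% of the sites away from promoters.

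At Skil the site lay 0.938 kb upstream of the start, with signals of 9.13, 9.40 and 7.30 in ChIP and 0.448 and 0.530 in input. At Perp it lay 10 bp upstream of the start, with 8.85, 9.93 and 11.7 against 0.603 and 0.560. The promoter of Mdfic, an inhibitor of MyoD family factors, had 17.4, 25.7 and 27.6 at 51 bp upstream, with a higher input of 1.96 and 1.33. Those of Krt80, a keratin, and Hagh, a glyoxalase, had mean folds of 14.1 ± 1.93 and 11.6 ± 5.91 (SD, n = 3), and at Hagh the value of replicate 3 (18.4) was above those of replicates 1 and 2 (7.40 and 9.15).

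Genes of 10 ovarian and control lists were the nearest to 22 of the sites, by protein-coding start and at any distance. The TGF-beta family list gave 7 sites, nearest to Bmpr1b, Fst, Inhba, Smad3, Smad7 and Tgfbr3 (1.38% of the 506 sites, and 0.635% of all sites). The strongest Inhba site lay 440 kb and the Smad3 site 37.6 kb from the start. Steroidogenesis gave 3 (0.593% and 0.188%), namely the site 121 bp upstream of the start of Hsd17b1, which makes estradiol from estrone, the site 11.2 kb upstream of the start of Cyp19a1, the aromatase, and one in intron 1 of 12 of Scarb1, the HDL receptor. The signals at Hsd17b1 were 3.74, 5.04 and 6.28, against 0.663 and 0.680 in input, and at Cyp19a1 4.70, 5.99 and 4.93, against 0.530 and 0.422. At both genes all ChIP values lay above both inputs. Both sites were called in all 3 replicates, and a call requires signal above input. Gonad transcription factors gave 3, nearest to Cebpb (72.6 kb away), Foxl2 and Gata4, a smaller share than over all sites (0.593% and 0.847%). Immediate early genes gave 4 (0.791% and 0.470%), nearest to Egr3, Fosl2 and Myc, with 2 of them nearest to Fosl2. No site was nearest to a gene of gonadotropin and cAMP signalling, where all classes together had 14 sites, nor to one of the circadian clock or of extracellular matrix and remodelling. WNT and Hedgehog genes had 2 sites (0.395% and 0.282%), ribosomal protein genes 2 (0.395% and 0.259%) and histone genes 1 (0.198% and 0.0706%). The site nearest to Fzd1, on the WNT and Hedgehog list, lay 262 kb from its start. With counts this small no list was tested.

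The 506 sites were nearest to 470 genes, and 33 genes had at least 2 sites. Cog6, Pik3r1 and Rxra had 3 each. Rxra encodes a retinoid receptor that pairs with many nuclear receptors, and Pik3r1 a regulatory subunit of phosphoinositide 3-kinase. The median distance to the nearest other site was 64670 bp. Another site lay within 10 kb of 93 of them (18.4%), against 14.4% of the ERE sites and 19.7% of the GATA sites, and within 2 kb of 32 (6.32%), against 3.84% and 6.46%.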

How the data were processed

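The deposited files are signal (coverage) tracks on mm10, 1 per library, which the authors made with STAR and HOMER and scaled to a common total. The scaled tracks do not hold read counts, so no counting interval is given. Each value covers a segment of constant signal (median 269 to 519 bp). Signal was rebinned to 10 bp, chromosomes 1 to 19 and X were kept, and sites were called, merged within 200 bp and classified as described above. The input was set to at least 0.368, its genome mean. Sequence came from the RefSeq copy of GRCm38.p6 and annotation from GENCODE vM21 (139486 transcripts). The genome was also cut into 1-kb windows, and those whose mean signal reached 0.1 were tested with limma 3.58.1 on log2(signal + 0.5). The caller, motif and limma steps were checked on simulated data. Shares at sites were compared with tiles without a test. The members, motifs and gene lists were chosen with earlier results of these data known. Named sites were the 10 strongest in all 3 replicates, the 5 strongest at promoters, the 2 strongest per motif with a central match, those at the limits and up to 3 per gene list, unless stated. Replicate numbers were taken from titles. One site that this rule names is not reported here.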

Additional observations from a re-analysis of the deposited data

How the results depend on the processing

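The number of sites without the 3 motifs stayed within 1.5 times of 506 under most settings tried, but was 135 with a fold of 8 over input (1579 sites in all), 319 with GGGTCA also counted as a half-site, 330 with 400 bp searched and 876 with 100 bp. Leaving out 1 ChIP replicate gave 334 to 420. The held-out fold rose to 11.35 with a fold of 8 in the calling libraries. Windows called by limma numbered 1004 to 2540, and sites within them 82 to 236, with 1 library left out. Shares of sites moved with the length searched, from 28.3% at 100 bp to 41.9% at 400 bp for GGGTCA, 7.51% to 14.8% for the NR5A variant and 4.15% to 11.3% for AP-1. They were 5.93% at 100 bp for the glucocorticoid-type palindrome and 19.6% at 400 bp for the GC box. The promoter share was 10.9% with protein-coding transcripts alone. The replicate numbers did not pair ChIP and input libraries (correlations of deviations 0.04 and −0.01, and 0.05 for ChIP replicate 3 with Input 2). With the replicate block 3428 windows were called higher in ChIP, and 3209 lower, where the fit without the block called 65 lower. ChIP replicate 3 has no input of the same number, so with the block it did not enter the contrast. The higher windows covered 263 of the sites. The held-out difference from ERE sites kept its sign with either input alone and without division by input (−0.13 to −0.34). Alternatives chosen after seeing the data gave 478 sites without those of 50% or more masked bases, and 536 when each ChIP library was compared only with the input that shares its kind of track name. Averaged segments limit the position of a centre.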
